A study of Mus musculus with 6 samples.

Results

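The genes of cyclic AMP production, sensing and breakdown were compared between AB1 and AC29, a pair of mouse malignant mesothelioma cell lines. Genes were taken by name from the array's annotation: adenylyl cyclases, subunits and inhibitors of protein kinase A (PKA), A-kinase anchoring proteins (AKAPs) and lettered phosphodiesterases. This gave 54 of the 18193 genes measured. Where a gene had several probe sets, 1 was chosen by the highest mean over the 6 arrays, so that mean is a description; the difference between the lines did not enter the choice. The set holds 10 cyclases, 2 catalytic and 4 regulatory PKA subunits, 3 PKA inhibitors, 14 AKAPs and 21 phosphodiesterases. The name pattern took phosphodiesterases whichever cyclic nucleotide they act on, and Pde6d, which is not a hydrolase.

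AB1 comes from a female BALB/c mouse and was used at passage 40; AC29 comes from a female CBA mouse and was used at passage 60, and the labels give an age of 6 to 8 weeks for both. Both lines are untreated and were grown in medium with 5% foetal calf serum, harvested at 80% confluency, with 3 flasks per line and 1 Affymetrix 3′ array per flask. Line, strain and passage cannot be told apart, each line stands for a single tumour, and p-values reflect only how far flasks of a line vary. The arrays read bulk RNA, in which fewer cells of a type and less RNA per cell cannot be told apart. Values are log2 RMA intensities, on which 1 unit is a 2-fold difference. A value counted as above background over a floor of 6.07, under which 95% of readings lay for 86 chemosensory receptor probe sets (smell, pheromone and taste). A line with no array above it has no measured level for that gene, and a fold against it is a lower bound. The call rule needed at least a 2-fold difference and, in limma, an adjusted p under 0.05, by Benjamini-Hochberg over all 18193 genes.

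Cyclic AMP is made from ATP by adenylyl cyclases, which receptors switch on through stimulatory G proteins. It binds the regulatory subunits of PKA, which then let go of the catalytic subunits. AKAPs hold PKA at membranes, organelles and the cytoskeleton, small PKI proteins block free catalytic subunits, and phosphodiesterases end the signal by hydrolysing the nucleotide. PKA phosphorylates the transcription factor CREB, which binds DNA sites with the core TGACG.

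The type II regulatory subunits, a calcium-stimulated cyclase and phosphodiesterases were higher in AB1, and a PKA inhibitor and anchoring proteins were higher in AC29. Of the 54 genes, 6 were called higher in AB1 (Adcy8, Prkar2a, Prkar2b, Pde1a, Pde4b and Pde4d) and 3 higher in AC29 (Akap5, Akap12 and Pkia). Pde1a was above the floor in neither line. The 9 called genes are 16.7% of the set, against 10.9% of all genes tested; toward AC29 the share over all genes was 5.12% and toward AB1 5.82%. The median difference, AC29 minus AB1 on the log2 scale, was -0.05 for the 54 genes and 0.00 for all genes, and the median size of a difference was 0.145 and 0.196. An adjusted p under 0.05 without the 2-fold minimum was found for 21 of the 54 (8 toward AC29 and 13 toward AB1), where the share over all genes was 39.1%. AB1 and AC29 arrays showed no overlap for 24 of the 54 (44.4%) and for 50.1% of all genes. In all, 34 of the 54 exceeded the floor on at least 1 array, and none was filtered out before the fit.

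**Figure D1:**
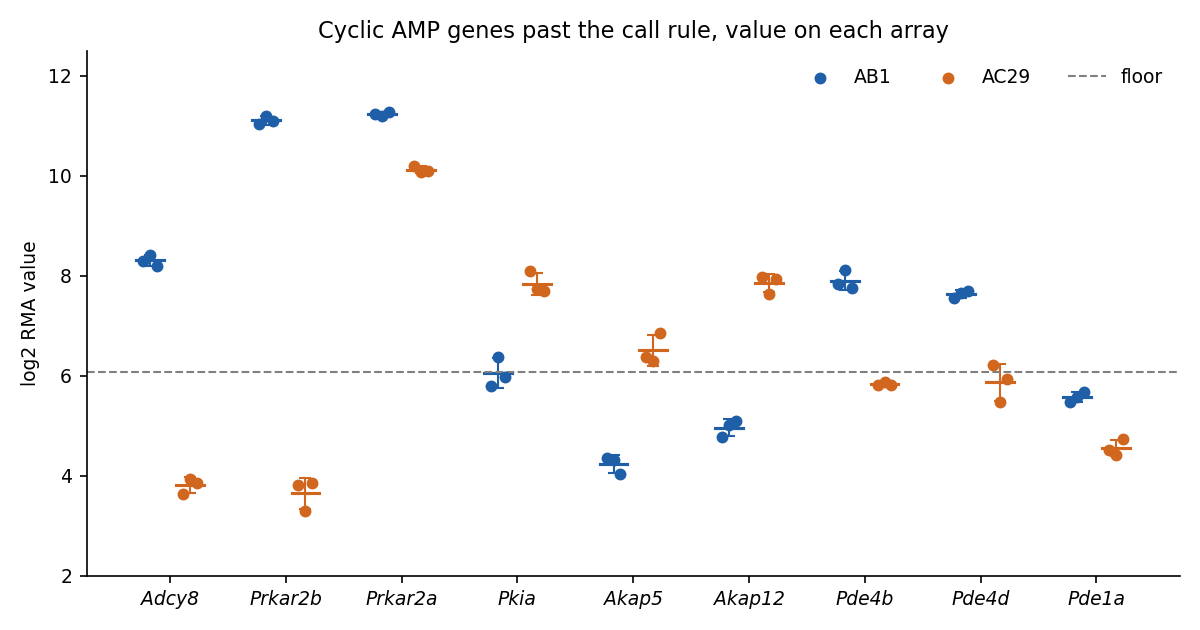
Log2 RMA values (vertical axis) of the 9 called cyclic AMP genes on each of the 6 arrays; points are arrays, horizontal bars the mean and whiskers the SD of 3 arrays, and the dashed line is the floor at 6.07. Prkar2b and Adcy8 lie above the floor in AB1 and below it in AC29, Akap5 and Akap12 the other way, and both lines lie below it for Pde1a.

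Regulatory subunits bind cyclic AMP and decide where the kinase is held, type II subunits mostly on AKAPs and type I subunits largely in the cytosol. Prkar2b, the type II beta subunit, read 11.03, 11.20 and 11.09 on the AB1 arrays and 3.81, 3.28 and 3.85 on the AC29 arrays. All AB1 arrays were thus bright and no AC29 array exceeded the floor, which makes the gene at least 32.8-fold higher in AB1 (log2 difference -7.46 with a standard error of 0.147; limma adjusted p = 1.07e-09). Its other probe sets showed the same pattern, at 10.79 against 3.59 and at 9.59 against 4.36. Prkar2a, the type II alpha subunit found in most tissues, read 11.23, 11.19 and 11.27 in AB1 and 10.20, 10.08 and 10.09 in AC29. It was present in both lines, without overlap, and 2.15-fold higher in AB1 (log2 difference -1.11, 95% interval -1.29 to -0.92; limma adjusted p = 5.20e-06). Further Prkar2a probe sets with signal differed by -1.02 and -1.36; tested by limma's treat against a 2-fold difference, Prkar2a was not called.

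Neither type I subunit was higher in AB1. Prkar1a, the type I alpha subunit, read 12.03, 12.11 and 12.04 in AB1 and 12.63, 12.28 and 12.59 in AC29. The arrays did not overlap and the AC29 side was higher by 0.44 (95% interval 0.19 to 0.68; limma adjusted p = 0.0102), under the 2-fold minimum, and another probe set above the floor differed by 0.26. Prkar1b, the type I beta subunit, lay between 7.61 and 7.67 in AB1 and between 7.56 and 7.91 in AC29, so that its ranges overlapped (difference 0.12, 95% interval -0.12 to 0.36).

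The catalytic subunits carry the kinase activity. Prkaca, the alpha subunit, read 10.13, 10.12 and 10.21 in AB1 and 10.46, 9.75 and 10.05 in AC29. Its ranges overlapped, with a difference of -0.06 (95% interval -0.42 to 0.29), and AC29 replicate 14 was its lowest array. Prkacb, the beta subunit, read 9.92, 10.07 and 9.93 in AB1 and 9.59, 9.28 and 9.55 in AC29, a 1.42-fold difference without overlap but under the 2-fold minimum (limma adjusted p = 0.00408).

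PKI proteins bind free catalytic subunits as a false substrate. Pkia, the alpha form, read 5.80, 6.38 and 5.98 in AB1, where 1 of the 3 arrays was above the floor, and 8.09, 7.73 and 7.70 in AC29. Every AC29 array was above every AB1 array, and the difference was 1.79 (standard error 0.161; limma adjusted p = 1.96e-05). Its other probe set gave 5.27 against 7.14. Pkig, the gamma form, was present in both lines and differed by 0.02 (95% interval -0.26 to 0.30), and Pkib, the beta form, was above the floor in neither.

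**Figure D2:**
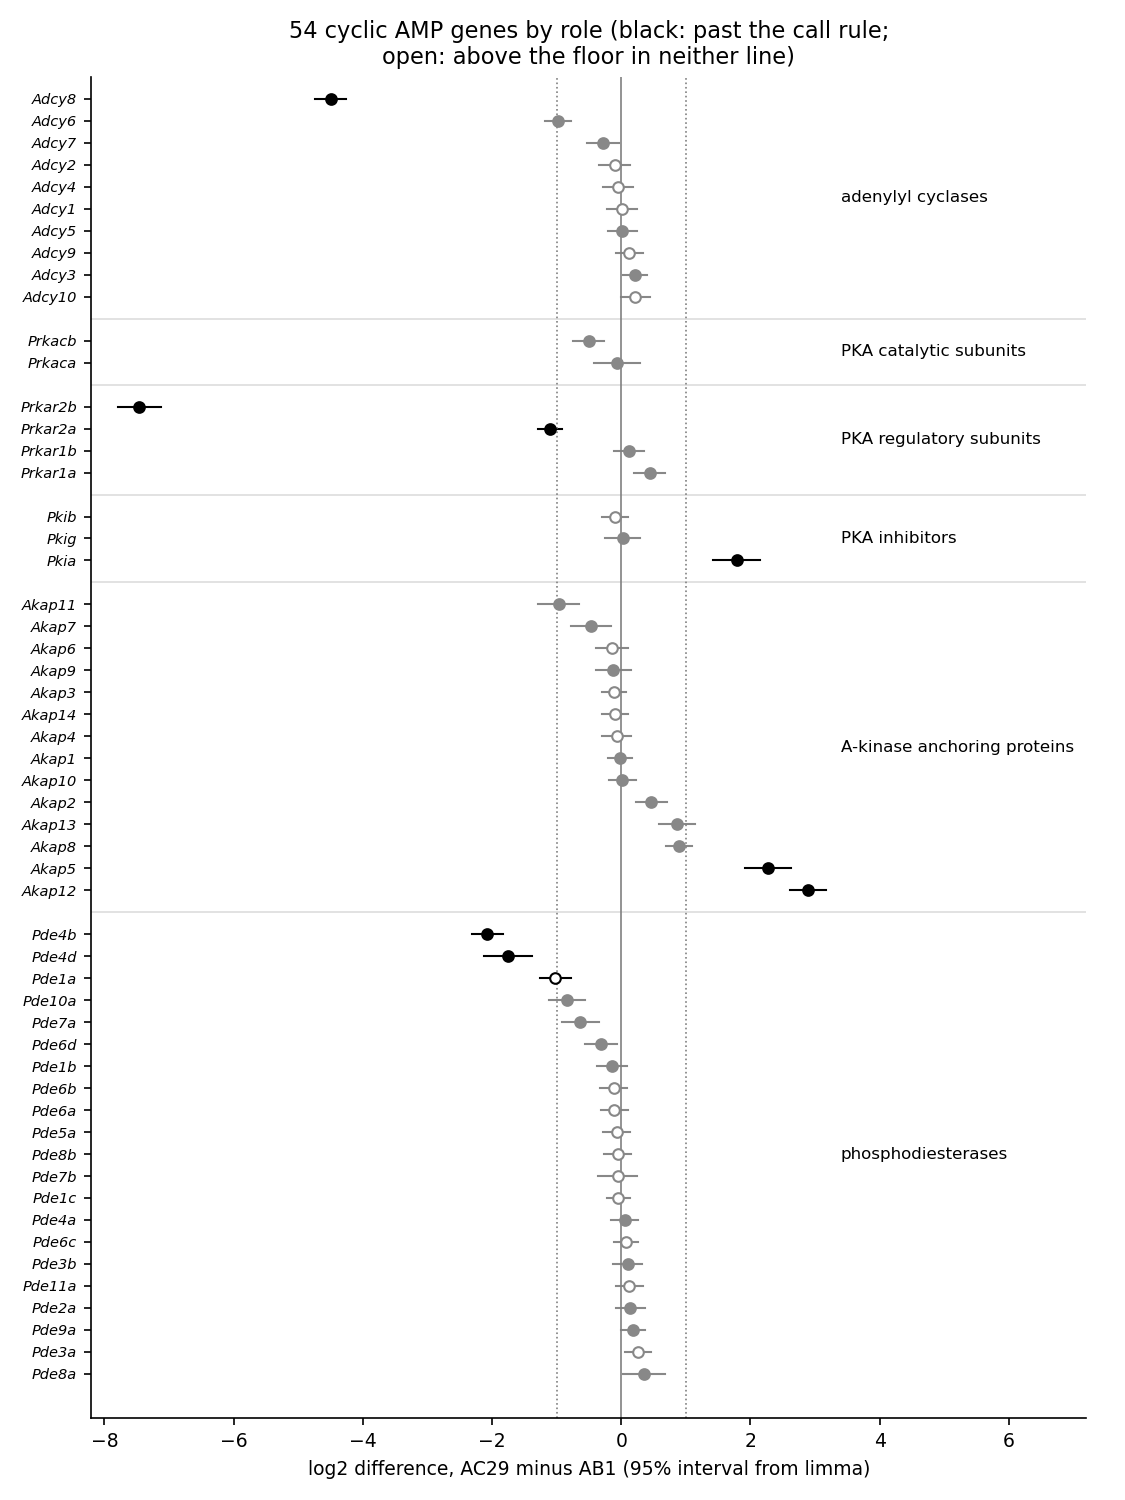
Log2 difference, AC29 minus AB1 (horizontal axis), of each of the 54 genes by role, with 95% intervals from limma; black marks passed the call rule, open circles were above the floor in neither line (Pde1a is both), and dotted lines mark a 2-fold difference. The regulatory subunits run from -7.46 for Prkar2b to 0.44 for Prkar1a, while 29 of the 54 genes differ by less than 0.2 in either direction.

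Among the cyclases, 1 of 10 was called, where the share over all genes was 10.9%. Adcy8, a cyclase stimulated by calcium and calmodulin and best known from brain, read 8.30, 8.42 and 8.20 in AB1 and 3.63, 3.94 and 3.86 in AC29. It was above the floor on every AB1 array and on no AC29 array, and at least 4.70-fold higher in AB1 (log2 difference -4.49, standard error 0.106; limma adjusted p = 2.97e-09). The array carries 1 probe set for it under this annotation. Adcy6, a cyclase that calcium inhibits, read 9.03, 9.20 and 8.97 in AB1 and 8.07, 8.07 and 8.13 in AC29. The arrays did not overlap, and the 1.97-fold difference toward AB1 (95% interval of the log2 difference -1.18 to -0.77; limma adjusted p = 2.19e-05) lay just under the 2-fold minimum, which it passed without AB1 replicate 6.

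No other cyclase above the floor passed the adjusted p by the probe set used. Adcy7 read 9.01 ± 0.07 in AB1 and 8.73 ± 0.20 in AC29 (SD, n = 3) and Adcy5 read 8.14 ± 0.10 and 8.16 ± 0.14, both with overlapping arrays. The further Adcy5 probe sets were all under the floor in both lines, the brightest at 5.38 in AB1 and 5.37 in AC29. Adcy3, known from olfactory cilia and many other tissues, read 6.41 ± 0.03 and 6.62 ± 0.08, near the floor, without overlap and with a limma adjusted p = 0.0757. Another Adcy3 probe set read 6.01 and 6.64, also without overlap, and with that one in its place the limma adjusted p was 0.000383, under the 2-fold minimum. By the probe sets used, Adcy1, Adcy2, Adcy4, Adcy9 and the soluble cyclase Adcy10 were above the floor in neither line. Another Adcy9 probe set exceeded it on 1 AC29 array, at 6.20.

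AKAPs called were all on the AC29 side, 2 of 14 (14.3%, against 10.9% of all genes). Akap12, a membrane-linked scaffold that also binds protein kinase C, read 4.78, 5.01 and 5.10 in AB1 and 7.98, 7.64 and 7.94 in AC29. It was above the floor only on the AC29 arrays, which makes it at least 3.44-fold higher there (log2 difference 2.90, standard error 0.122; limma adjusted p = 1.12e-07). Akap5, which gathers PKA, calcineurin and cyclases at the plasma membrane, read 4.35, 4.32 and 4.03 in AB1 and 6.38, 6.29 and 6.86 in AC29. Its AC29 arrays were above the floor but under 7.23, below which 99% of the chemosensory readings lay, and the difference of 2.27 (limma adjusted p = 3.31e-06) gives at least 1.35-fold. Its other probe sets differed by 3.62 and 1.70 in the same direction, the latter with neither line above the floor.

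Other AKAPs differed by less than 2-fold, in both directions. Akap8, which is held in the nucleus, read 9.24, 9.10 and 9.19 in AB1 and 10.02, 10.19 and 10.02 in AC29, a 1.86-fold difference without overlap (limma adjusted p = 3.81e-05), while its other probe set differed by 0.14. Akap13 was 1.82-fold higher in AC29, with log2 differences of 0.72 and 0.58 for its further probe sets with signal. Akap2 was 1.38-fold higher in AC29, with 0.48 for its other probe set. On the AB1 side, Akap11 read 9.48, 9.73 and 9.69 against 8.84, 8.35 and 8.80 in AC29, which was 1.96-fold (limma adjusted p = 0.000423), and it was called when AB1 replicate 4, AC29 replicate 13 or AC29 replicate 15 was left out. Akap7 was 1.38-fold higher in AB1 (limma adjusted p = 0.0210).

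Akap1, an anchor of the mitochondrial surface, differed by -0.02 (95% interval -0.20 to 0.17) and Akap10 by 0.02 (-0.19 to 0.23). Akap9, an anchor of the Golgi and centrosome, differed by -0.12 (-0.39 to 0.15). The sperm proteins Akap3 and Akap4, the muscle and nerve anchor Akap6, and Akap14 were above the floor in neither line.

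Of the phosphodiesterases, 3 of 21 were called (14.3%, against 10.9% of all genes), all higher in AB1. Pde4b, which hydrolyses cyclic AMP alone, read 7.83, 8.12 and 7.76 in AB1 and 5.80, 5.88 and 5.81 in AC29. No AC29 array exceeded the floor, and the gene was at least 3.55-fold higher in AB1 (log2 difference -2.07, standard error 0.108; limma adjusted p = 4.70e-07); its other probe set above the floor differed by -2.09. Pde4d, of the same subfamily, read 7.54, 7.65 and 7.70 in AB1 and 6.20, 5.47 and 5.94 in AC29, where 1 of 3 arrays was above the floor. It was higher in AB1 (log2 difference -1.76, standard error 0.165; limma adjusted p = 2.53e-05), and no fold is given because the AC29 mean of 5.87 lay under the floor. Pde4a, the remaining measured member of the subfamily, read 7.01 ± 0.11 in AB1 and 7.06 ± 0.08 in AC29 (SD, n = 3), with a 95% interval of the difference from -0.15 to 0.26. On the mean of all probe sets of a gene, many of them under the floor, Pde4b (-0.86), Pde4d (-0.94) and Prkar2a (-0.93) kept their direction but were under 2-fold.

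Pde1a, a calcium-stimulated enzyme, passed the rule at values of 5.58 ± 0.10 in AB1 and 4.55 ± 0.16 in AC29 (SD, n = 3), all under the floor, so no fold is given; it was called in 10 of 15 alternatives. It fell under 2-fold without AB1 replicate 6 (-0.97) or AC29 replicate 14 (-0.95), with array weights (-0.99) and on the mean of its probe sets (-0.46), and was not called by limma's treat. Pde10a, best known from the striatum, read 7.95, 7.63 and 7.60 in AB1 and 7.08, 6.82 and 6.76 in AC29. The difference was 1.79-fold without overlap (limma adjusted p = 0.000543), but another of its probe sets, near the floor, differed by -0.10. Its remaining probe sets, under the floor in both lines, differed by -2.36, -0.47 and 0.07. Pde7a, which is specific for cyclic AMP, was 1.56-fold higher in AB1 (limma adjusted p = 0.00295), and its other probe sets differed by -0.98 to -0.11. Pde6d, a carrier of prenylated proteins rather than a hydrolase, was 1.24-fold higher in AB1 with overlapping arrays (limma adjusted p = 0.0483).

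The insulin-regulated Pde3b differed by 0.10 (95% interval -0.12 to 0.32) and the cyclic GMP-stimulated Pde2a by 0.14 (-0.08 to 0.36). Both were well above the floor by the probe sets used. Another Pde2a probe set read 8.35 in AB1 and 8.55 in AC29, but its remaining one, at 4.75 and 4.87, was under the floor in both lines. Pde1b differed by -0.15 near the floor, and Pde8a and Pde9a exceeded it on 1 AC29 array each. Pde3a, Pde1c, Pde5a, Pde7b, Pde8b, Pde11a and the retinal Pde6a, Pde6b and Pde6c were above the floor in neither line.

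**Figure D3:**
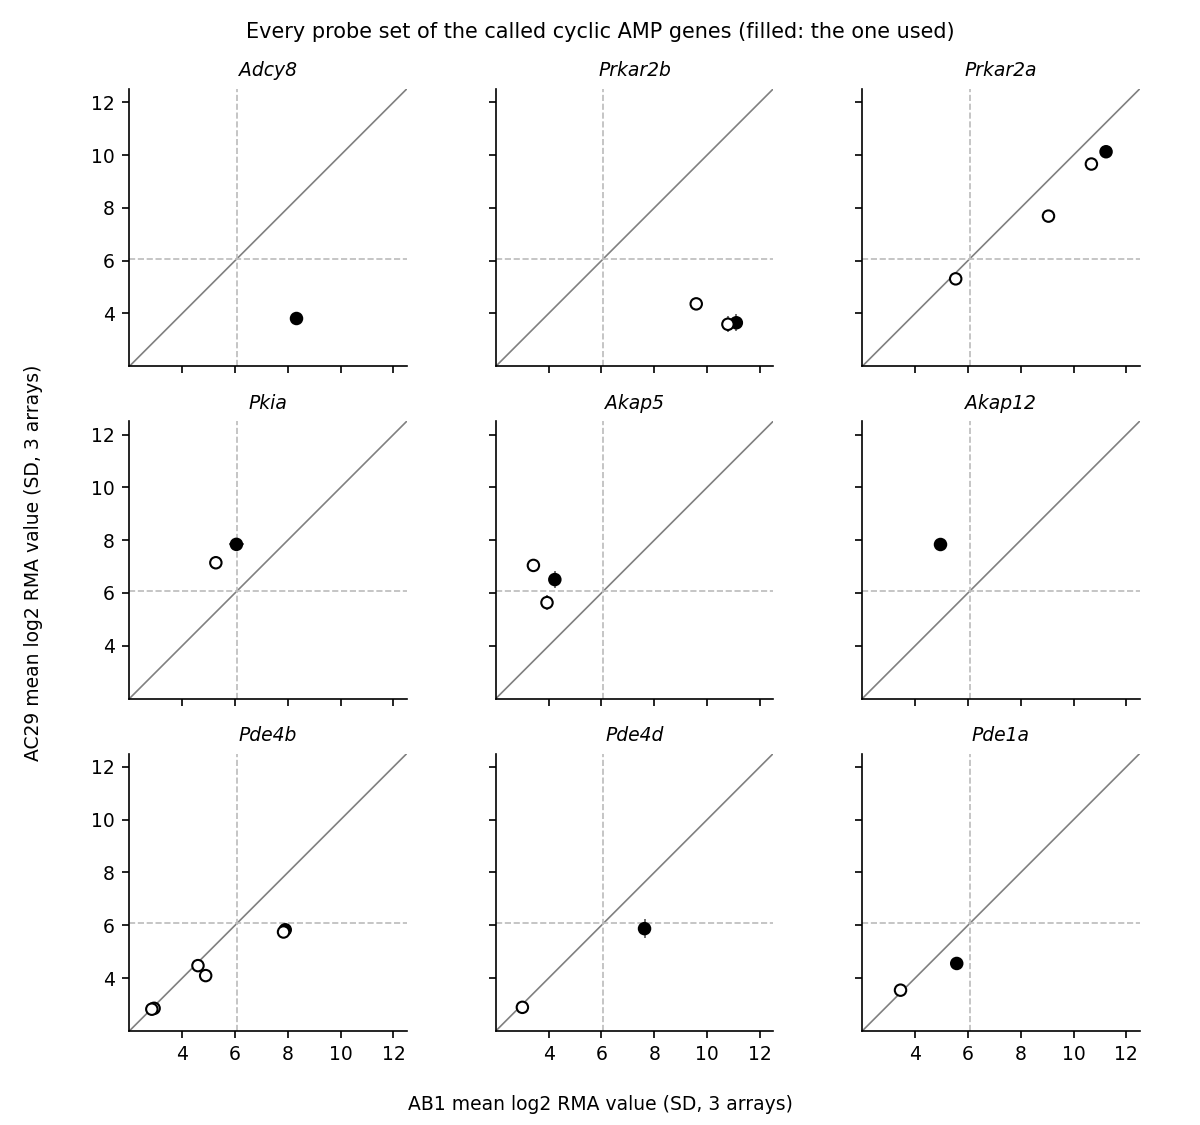
Mean log2 RMA value of every probe set of the 9 called genes, 1 panel per gene, in AB1 (horizontal axis) and AC29 (vertical axis), with the SD of 3 arrays; filled points are the probe sets used, the diagonal marks equal values and dashed lines mark the floor at 6.07. The 3 probe sets of Prkar2b lie far under the diagonal and those of Akap5 above it, while the probe sets of Pde4b near the diagonal are under the floor in both lines.

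In all, 7 of the 9 called genes had further probe sets, 15 together. Of these, 7 exceeded the floor on at least 1 array, and they belong to Prkar2a, Prkar2b, Pde4b, Akap5 and Pkia. All 7 differed in the direction of the call and by at least 2-fold. Most passed the floor only through the line where the gene was called higher, so their agreement was partly built in. The rest were under the floor in both lines. Among the rest, only that of Pde1a (0.10) went against the call, and sizes ran from 0.03 in Pde4b to 1.70 in Akap5.

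Promoter sequences of called genes are shown because CREB, a nuclear target of PKA, acts through promoters. Whether promoters or CREB have a part in the differences between the lines was not tested. The sequences are RefSeq's for assembly GRCm38.p6, a C57BL/6J reference, so they do not show the alleles of BALB/c or CBA. Each run is the 250 bases before an annotated start, 5′ to 3′ on the gene's strand. Capitals mark the CREB core TGACG, or its reverse complement CGTCA on the same run.
Prkar2b promoter, chr12:32061278-32061527, minus strand: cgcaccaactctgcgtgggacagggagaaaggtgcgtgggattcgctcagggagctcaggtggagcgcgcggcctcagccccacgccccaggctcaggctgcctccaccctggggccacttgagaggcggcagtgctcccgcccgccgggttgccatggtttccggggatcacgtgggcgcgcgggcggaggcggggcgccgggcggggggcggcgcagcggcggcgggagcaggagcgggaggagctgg
Prkar2a promoter, chr9:108691893-108692142, plus strand: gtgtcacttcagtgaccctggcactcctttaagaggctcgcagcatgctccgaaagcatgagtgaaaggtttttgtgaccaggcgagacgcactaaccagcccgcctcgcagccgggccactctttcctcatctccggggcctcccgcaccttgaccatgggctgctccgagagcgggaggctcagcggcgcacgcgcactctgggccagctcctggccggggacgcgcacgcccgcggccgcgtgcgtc
Akap5 promoter, chr12:76324641-76324890, plus strand: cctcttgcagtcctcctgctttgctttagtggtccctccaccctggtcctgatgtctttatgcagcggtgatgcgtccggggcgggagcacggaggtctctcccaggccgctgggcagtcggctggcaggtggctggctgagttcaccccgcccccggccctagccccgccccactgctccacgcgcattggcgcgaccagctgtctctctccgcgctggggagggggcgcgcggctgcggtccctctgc
Pde4b promoter, chr4:102421305-102421554, plus strand: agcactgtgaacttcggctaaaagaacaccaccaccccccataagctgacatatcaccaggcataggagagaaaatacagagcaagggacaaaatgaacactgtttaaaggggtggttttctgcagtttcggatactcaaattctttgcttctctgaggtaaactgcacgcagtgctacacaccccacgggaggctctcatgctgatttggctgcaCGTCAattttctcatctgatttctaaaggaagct

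Of these runs, only that of Pde4b held the core, on the opposite strand at position -34 from the start, and it was absent from the 3 other annotated Pde4b promoters. The search covered both strands of the whole 300-base window, from 250 before to 50 after the start. In that window Prkar2a held 1 core, which crosses its start and so lies only partly in the printed run, 1 of the 4 annotated Pde1a promoters held 1, and Prkar2b, Akap5 and Pde4d held none. Over the set, 43 of the 54 genes matched the promoter table with 88 promoters, 17 of which (19.3%) held the core, against 20.8% of all 32851 promoters. The full palindrome TGACGTCA, which contains the core on both strands, was found in 2 of the 88 (2.27%) and in 1.79% of all promoters; both belong to overlapping windows of Prkar1a. Adcy8, Akap12 and Pkia have no entry in that table.

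Genes around the core of the pathway were described by lists of receptors, G proteins, effectors, CREB factors and CREB-responsive genes. These lists were chosen with earlier results of these data known, so their calls are a description. Among 24 measured receptors that couple to stimulatory G proteins, 3 were higher in AB1 and 1 in AC29 (16.7% called, against 10.9% of all genes). Ptger4, a prostaglandin E2 receptor, read 9.23, 9.31 and 9.11 in AB1 and 6.69, 6.18 and 6.71 in AC29, 6.46-fold higher in AB1 (limma adjusted p = 5.81e-07). Ptger2, the other prostaglandin E2 receptor of this class, read 3.39, 3.70 and 3.72 in AB1 and 6.67, 6.26 and 6.28 in AC29, at least 1.26-fold higher in AC29 (limma adjusted p = 3.14e-07). Thus AB1 arrays were high for Ptger4 and under the floor for Ptger2, and AC29 arrays were near the floor for both. Glp1r, the receptor for glucagon-like peptide, was at least 2.27-fold higher in AB1, and Calcrl, a receptor for adrenomedullin and related peptides, was called at 6.00 against 4.93, with 1 AB1 array above the floor.

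Of 12 genes for G proteins and receptor desensitisation, 1 was called (8.33%, against 10.9% of all genes). This was Ric8a, a chaperone of inhibitory alpha subunits, at 2.40-fold higher in AB1. Its further probe sets gave differences of -1.10, -0.28 and 0.11. Gnas, the stimulatory alpha subunit, read 13.24 ± 0.08 in AB1 and 12.99 ± 0.16 in AC29 (SD, n = 3) and was not called. Of 10 other effectors and efflux genes, Rapgef3, the exchange factor for Rap that cyclic AMP opens directly, was 2.11-fold higher in AC29 (7.32, 7.66 and 7.51 against 6.35, 6.39 and 6.53 in AB1; limma adjusted p = 3.78e-05). The efflux pump Abcc4 read 9.54 in AB1 and 8.75 in AC29, under the 2-fold minimum.

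None of 10 CREB factors, coactivators and SIK kinases was called in limma. An adjusted p under 0.05 without the minimum was found for 5 of the 10, where the share over all genes was 39.1%. Creb1 read 9.67 ± 0.06 in AB1 and 9.61 ± 0.14 in AC29 (SD, n = 3). Among 14 CREB-responsive genes, 5 were called higher in AB1, none was called higher in AC29 and 9 were not called. The share called was 35.7%, against 10.9% of all genes. As this list was chosen with earlier results of these data known, that contrast is a description. The growth factor Bdnf read 11.03, 10.88 and 10.92 in AB1 and 8.54, 8.78 and 8.57 in AC29, 4.97-fold (limma adjusted p = 1.05e-07). The G protein regulator Rgs2 was 4.74-fold and the orphan nuclear receptor Nr4a1 3.15-fold higher in AB1. Its relative Nr4a2 was higher in AB1 by a log2 difference of -1.68, with 1 of 3 AC29 arrays above the floor, and its further probe sets above the floor differed by -2.30 to 0.05. Fosb was higher in AB1, at least 1.14-fold, with 2 of 3 AB1 arrays above the floor. Dusp1 (9.25 in AB1 and 9.34 in AC29), Junb (8.95 and 8.89), Fos (6.72 and 7.13) and Per1 (6.59 and 7.40) were not called. Of these, Per1 was 1.75-fold higher in AC29 without overlap (limma adjusted p = 0.000199), under the 2-fold minimum. Fos was higher in AC29 by 0.41 with overlapping arrays (limma adjusted p = 0.036). Nr4a3, a further relative of Nr4a1, read 7.27 in AB1 and 7.35 in AC29 and was not called either. All of these genes also answer to signals other than cyclic AMP, and which signal set their levels was not tested.

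**Figure D4:**
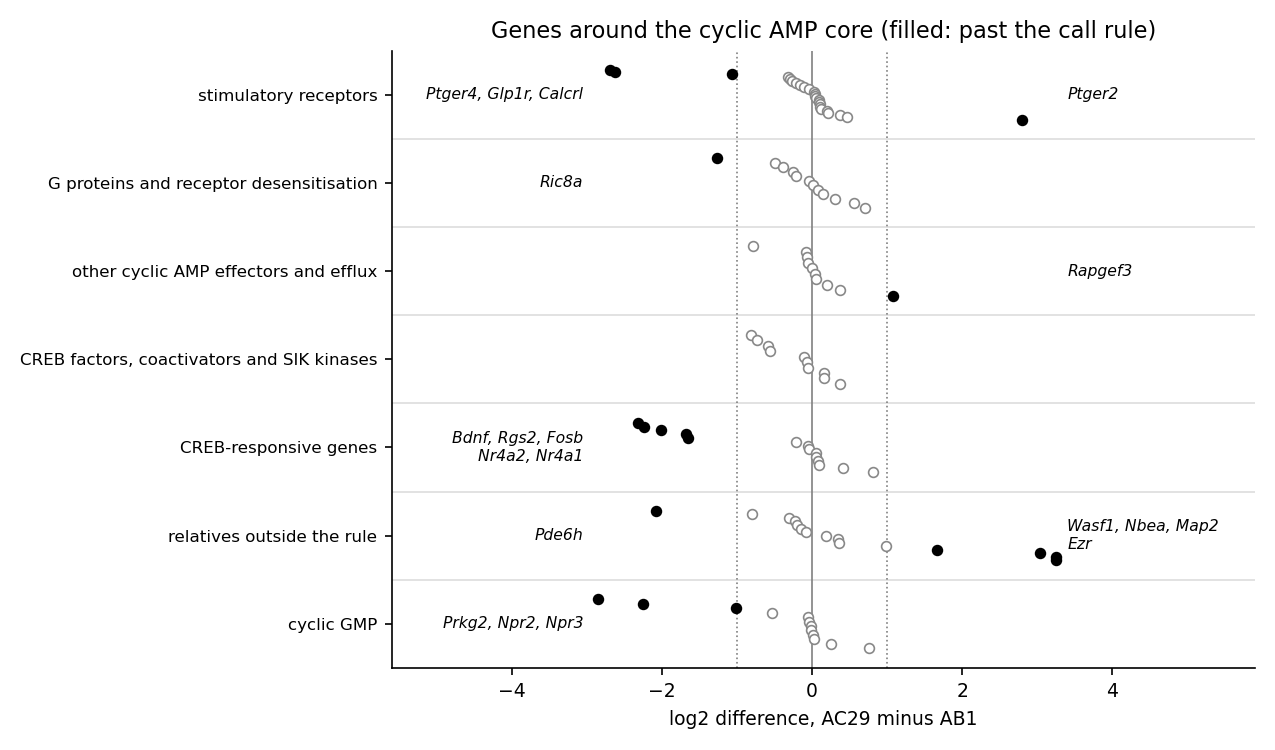
Log2 difference, AC29 minus AB1 (horizontal axis), of each measured gene in 7 lists around the cyclic AMP core (rows, with relatives meaning anchors and subunits that the name pattern of the 54 genes leaves out); filled points passed the call rule and are named at the side toward which they lie, and dotted lines mark a 2-fold difference. The 5 called CREB-responsive genes lie between -2.31 and -1.65, and the receptors Ptger4 and Ptger2 lie on opposite sides at -2.69 and 2.80.

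The chromosomal neighbours of the called genes were listed from the RefSeq gene order of GRCm38.p6, 3 measured genes on each side. Of these 54 neighbours, 4 were called higher in AC29 and 2 higher in AB1, 11.1% against 10.9% of all genes. Around Prkar2b, the transcription factor Hbp1 read 8.44 in AB1 and 8.96 in AC29 and was not called, and Ccdc71l was called higher in AB1 (7.17 against 5.99). Around Pkia, Zfhx4 was called higher in AC29 (3.03 in AB1 and 7.07 in AC29) and Stmn2 higher in AB1 (7.40 and 5.62). Around Pde4d, Elovl7 (5.25 in AB1 and 7.42 in AC29) and Rab3c (4.25 and 5.72, under the floor) were called higher in AC29. Rmnd1 near Akap12 was also called higher in AC29 (5.19 in AB1 and 6.21 in AC29). Around Adcy8, Asap1 (10.18 in AB1 and 10.03 in AC29) and Efr3a (10.35 and 10.07), which lie nearest among genes above the floor, were not called.

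As a check of the labelled cell type, 8 of 10 mesothelial markers were called higher in AC29 and none in AB1 (10.9% of all genes were called). Msln read 9.67 in AB1 and 10.41 in AC29 and Krt18 12.38 and 13.55, while Wt1, Upk3b, Krt8, Lrrn4 and Gpm6a were not above the floor in AB1. These markers moved with the line, as did the 9 called cyclic AMP genes, and their part in those differences was not tested. Of 6 leukocyte markers, Ptprc, Adgre1 and Itgam were above the floor in neither line, Cd3e (6.83 in AB1 and 7.01 in AC29) and Csf1r (6.56 and 6.66) were above it on all 6 arrays, and Cd68 was above it on the AB1 arrays. Of 5 endothelial markers, 4 were above it in neither line, and no gene of either list was called in limma. Without the 2-fold minimum, 1 of these 11 genes, Cd68, had an adjusted p under 0.05, where the share over all genes was 39.1%. Array medians lay between 5.76 and 5.81, correlations across genes were at least 0.995 within a line, and AC29 replicate 14 stood apart on the second principal component (2.86% of the variance).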

How the data were processed

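Each of the 6 arrays had 1 deposited log2 value per probe set; Partek 6.4, RMA and GCOS stand in the submitters' processing notes without roles or order, and the log2 scale was inferred from the values and RMA. RMA compresses differences of dim probe sets. Of 45101 probe sets, 64 controls were left out; 34945 had 1 gene symbol in the platform annotation, 932 several and 9160 none listed. Through the Entrez identifier 53 of the 54 genes matched RefSeq, the exception being Akap2. All probe sets were fitted on cell line alone with limma 3.58.1 in R 4.3.3 (lmFit, eBayes, 2-sided; 4 residual and 8.92 total degrees of freedom). In data simulated for this comparison over 18193 genes, 52% of 50 genes changed by a log2 of 1 were called, 98% at 1.5 and 100% at 2 and at 4. A change of 1 equals the 2-fold minimum, so the share called there was set by that cutoff and does not measure sensitivity. Any member could be named, and from the lists called genes, up to 2 bright uncalled genes and markers. Fos, Per1 and Nr4a3, and the neighbours, were chosen after their values were seen. The genes and lists were chosen with earlier results of these data known. Of 110 listed pathway genes 97 were matched; the others were not analysed here. Array number limits the precision; scan dates and probe intensities were not used here.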

Additional observations from a re-analysis of the deposited data

How the results depend on the processing

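The fit was repeated under 16 alternatives in normalization, centring, filter, probe set choice, variance model, array weights, threshold and left-out arrays. None of 842 single-gene values reversed a call, 817 kept their side of the rule, 9 lost it and 16 gained it. Only the 9 called genes could reverse or lose a call, and most values that kept their side belong to uncalled genes. Alternatives that change only the threshold, the test or the filter reuse the main difference and cannot change its sign. Adcy8, Akap5, Akap12, Pkia and Prkar2b were called in all 16. Without a minimum difference, AC29 was higher for 8 of the 54 and AB1 for 13, 3475 and 3630 of all genes, and 44 of the 97 pathway list genes were called. With probe sets averaged per gene 2 of the 54 were higher in AB1, where probe sets under the floor enter the mean. With limma's treat AC29 was higher for 565 of all genes and AB1 for 672. Leaving out each array in turn gave 3 of the 54 higher in AC29 each time and 5 to 7 higher in AB1, 897 to 986 and 1024 to 1095 of all genes, and 17 to 20 list genes. A floor at the 90th percentile (5.68) left 39 of the 54 genes with an array above it and one at the 99th (7.23) left 28. No paired analysis was possible because the lines share no replicate numbers.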

Other observations

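Proteins that anchor or resemble the enzymes above under other names, and the parallel cyclic GMP system, were listed too. These lists were also chosen with earlier results of these data known, so their calls are a description. Of 15 such relatives, 4 were higher in AC29 and 1 in AB1 (33.3% called, against 10.9% of all genes). Nbea (neurobeachin), which binds type II PKA, read 5.78, 6.28 and 6.20 in AB1 and 9.35, 8.81 and 9.23 in AC29, with 2 of 3 AB1 arrays above the floor, 8.24-fold higher in AC29 (limma adjusted p = 7.65e-07). Ezr (ezrin), a membrane and actin linker that anchors PKA, was 9.51-fold higher in AC29 by the probe set used, while another differed by 0.17. Wasf1, an actin regulator that binds type II PKA, was 3.17-fold higher in AC29. Map2, a microtubule protein that anchors type II PKA in neurons, was at least 1.42-fold higher in AC29. Its AC29 arrays (6.46, 6.54 and 6.73) were above the floor but under 7.23, below which 99% of the chemosensory readings lay. The further Map2 probe sets, under the floor in both lines, differed by 0.632, 0.355 and 0.249. Pde6h, the inhibitory subunit of the cone phosphodiesterase, read 8.57 in AB1 and 6.50 in AC29, and its other probe set gave 8.11 and 5.54.

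In the cyclic GMP list AB1 was higher for 3 of 12 genes and AC29 for none (25.0% called, against 10.9% of all genes). Prkg2, a membrane-bound kinase activated by cyclic GMP, read 11.83, 11.87 and 11.82 in AB1 and 9.16, 9.02 and 8.79 in AC29, 7.21-fold higher in AB1 (limma adjusted p = 4.72e-08). Another bright probe set differed by -2.48, and one near the floor by 0.70. Npr2, a receptor that makes cyclic GMP on binding C-type natriuretic peptide, was at least 3.58-fold higher in AB1. Npr3, the clearance receptor, was called on values under the floor in both lines (5.78 and 4.76), while another of its probe sets gave 6.16 and 3.09.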
